A study of Mus musculus with 16 samples.

Results

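The Cyp4a genes of the mouse encode a family of fatty acid hydroxylases, and 6 of them were followed here in liver RNA: Cyp4a10, Cyp4a12a, Cyp4a12b, Cyp4a14, Cyp4a31 and Cyp4a32. They were chosen by symbol, as the identifiers of both count tables that map to these 6 names, out of 23167 identifiers that the tables share. Cyp4a enzymes are cytochromes P450 of the endoplasmic reticulum that add a hydroxyl group to the terminal (omega) carbon of fatty acids such as lauric and arachidonic acid. Alcohol and aldehyde dehydrogenases then turn the product into a dicarboxylic acid, which peroxisomes shorten. In mouse liver the fatty acid receptor PPARalpha drives transcription of Cyp4a10 and Cyp4a14 and fasting raises it, while Cyp4a12a is known as an androgen-dependent gene of males.

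RNA came from the livers of 16 mice carrying floxed alleles of Matr3, the gene of the RNA-binding nuclear protein matrin-3. The 4 groups were 4 female LKO, 4 female floxed, 4 male LKO and 4 male floxed mice, with 1 mouse per library. LKO mice carried Cre recombinase under the albumin promoter, which is active in hepatocytes, so that other liver cells keep the gene; floxed mice, littermates of the LKO mice per the labels, had the floxed alleles alone. All 16 mice ate a high-fat diet (60% of energy as fat) from 7 weeks of age for 16 weeks and were fasted for 12 hours before tissue was taken, at about 23 weeks of age. The strain was not given, and no group on chow or without the fast was analysed here.

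The 16 libraries held 30495505 to 36496193 counts assigned to genes. Matr3 measured 38.0 ± 1.40 CPM (counts relative to library size, with TMM factors over all 16 libraries) in female LKO and 58.0 ± 5.03 CPM in female floxed livers, and 35.6 ± 1.65 CPM in male LKO and 57.7 ± 3.81 CPM in male floxed livers (SD, n = 4 each), with no overlap within a sex. Counts per gene do not separate reads of deleted and retained exons. Xist had 13346 to 18315 counts in female libraries and 0 to 6 in male libraries, and Ddx3y had 2129 to 2375 counts in every male library. The sexes were counted in separate tables, so a difference between the sexes and one between the tables cannot be told apart. In bulk tissue, fewer cells of a type and less RNA per cell cannot be told apart either.

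The 6 genes lie within 322.6 kb of chromosome 4 (mm10, the same sequence as GRCm38). In the order of the chromosome, Cyp4a12a spans chr4:115299046-115332815, Cyp4a12b chr4:115411624-115439034, Cyp4a14 chr4:115486200-115496142, Cyp4a10 chr4:115518264-115533649, Cyp4a31 chr4:115563649-115579015 and Cyp4a32 chr4:115600969-115621602. Cyp4a14 is on the minus strand and the other 5 are on the plus strand. The coding sequences fall into close copies: Cyp4a12a and Cyp4a12b were 98.5% identical, Cyp4a10 and Cyp4a32 97.2%, Cyp4a10 and Cyp4a31 96.6%, and Cyp4a31 and Cyp4a32 96.0%. Every other pair lay between 75.4% and 80.2%, and Cyp4a14 had no close copy.

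The stretch around the cysteine that holds the heme iron, the reaction centre of every P450, shows what the family shares. It lies in exon 12 of each gene, and the capitals mark the codon of that cysteine. The letters of Cyp4a10 (chr4:115532531-115532578, plus strand) were the same in Cyp4a31 and Cyp4a32, and those of Cyp4a12a (chr4:115331834-115331881, plus strand) were the same in Cyp4a12b. Cyp4a14 (chr4:115487264-115487311, minus strand) had its own version.
Cyp4a10: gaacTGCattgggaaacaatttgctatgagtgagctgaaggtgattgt
Cyp4a12a: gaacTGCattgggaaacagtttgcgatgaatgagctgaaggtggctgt
Cyp4a14: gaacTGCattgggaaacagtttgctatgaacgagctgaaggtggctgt

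The next stretch shows where reads can tell Cyp4a12a and Cyp4a12b apart. It is 90 bases of exon 6 (chr4:115326659-115326748 and chr4:115432912-115433001, both plus strand), and the capitals mark the positions that differ, 7 of the 23 in the 1524 bases of coding sequence.
Cyp4a12a: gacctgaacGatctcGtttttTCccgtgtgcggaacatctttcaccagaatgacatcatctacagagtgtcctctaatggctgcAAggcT
Cyp4a12b: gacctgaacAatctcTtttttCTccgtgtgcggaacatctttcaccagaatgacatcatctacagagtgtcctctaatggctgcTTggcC

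For Cyp4a10, Cyp4a31 and Cyp4a32 the stretch shown is 90 bases of exon 2 (chr4:115519630-115519719, chr4:115565010-115565099 and chr4:115602260-115602349, all plus strand). The capitals mark the columns in which the 3 genes are not all alike, 13 of the 77 in the 1527 bases of coding sequence.
Cyp4a10: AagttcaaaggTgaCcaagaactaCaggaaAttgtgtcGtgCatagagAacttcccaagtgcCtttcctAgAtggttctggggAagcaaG
Cyp4a31: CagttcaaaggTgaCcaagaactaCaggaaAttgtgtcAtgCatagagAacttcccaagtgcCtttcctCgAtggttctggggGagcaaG
Cyp4a32: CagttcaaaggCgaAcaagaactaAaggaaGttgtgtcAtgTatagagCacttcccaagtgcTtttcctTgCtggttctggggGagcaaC

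Most of the differing positions lie outside the stretch shown for each set. Of all windows of 100 bases in the transcript, 36.2% of those of Cyp4a12b and 35.8% of those of Cyp4a12a also occurred letter for letter in another annotated transcript, which was the transcript of the other copy. The share was 20.1% in Cyp4a32, 12.7% in Cyp4a10, 8.22% in Cyp4a31 and 0% in Cyp4a14. How reads that match several genes were counted is not given in the sources used here, so the counts of the 5 genes with copies are less certain than those of Cyp4a14, and most so for the rarer gene of each set.

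Together the 6 genes made up 0.478% ± 0.182 of all counts in female LKO and 0.496% ± 0.109 in female floxed livers, against 0.139% ± 0.0291 in male LKO and 0.172% ± 0.0369 in male floxed livers (SD, n = 4 each). Nearly all of it came from Cyp4a14 and Cyp4a10. Per kb of annotated exon, the order in female floxed livers was Cyp4a14 (1097 ± 267 CPM per kb), Cyp4a10 (868 ± 189), Cyp4a32 (25.0 ± 4.43), Cyp4a31 (14.5 ± 7.77), Cyp4a12a (0.0219 ± 0.0160) and Cyp4a12b (0.00951 ± 0.0123). The intervals of mean ± SD overlapped for Cyp4a14 and Cyp4a10, for Cyp4a32 and Cyp4a31, and for Cyp4a12a and Cyp4a12b. Within each female floxed library, however, Cyp4a14 lay above Cyp4a10. Their shares of the sum per kb were 52.7% to 58.1% and 39.9% to 45.5%. The order of Cyp4a32 and Cyp4a31 was reversed in female floxed 4. In male floxed livers the order was Cyp4a10 (371 ± 62.7 CPM per kb), Cyp4a14 (316 ± 113), Cyp4a12a (34.1 ± 13.6), Cyp4a32 (31.1 ± 6.63), Cyp4a31 (3.59 ± 0.596) and Cyp4a12b (2.70 ± 3.47). Here the intervals of mean ± SD overlapped for Cyp4a10 and Cyp4a14, for Cyp4a12a and Cyp4a32, and for Cyp4a31 and Cyp4a12b. Each of these orders was reversed in a single male floxed library, by share of the sum per kb. Cyp4a14 (48.1%) exceeded Cyp4a10 (41.9%) in floxed 4, and Cyp4a32 (3.78%) exceeded Cyp4a12a (2.51%) in floxed 3. In floxed 2 Cyp4a12b (1.33%) exceeded Cyp4a31 (0.678%). The gene model of Cyp4a32 is little more than its coding sequence (1536 bases of exon, against 2109 to 2601 in the other 5), so its level per kb is not on the same footing.

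**Figure D1:**
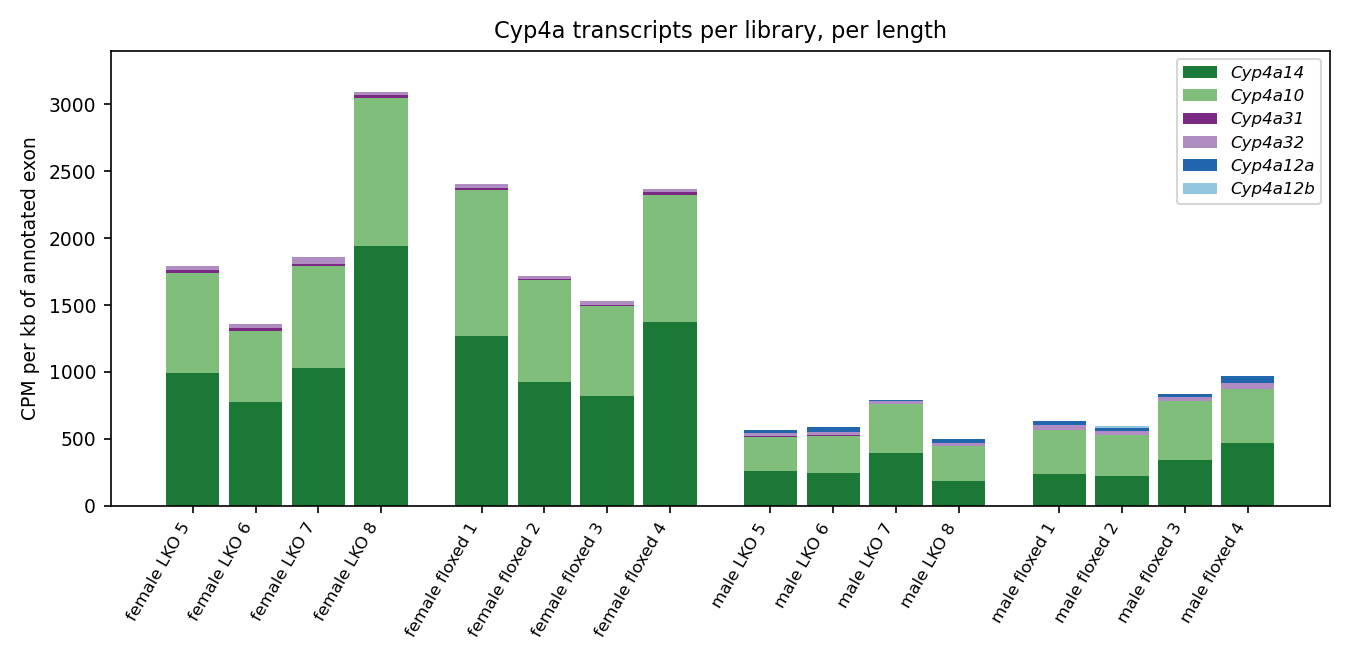
Stacked bars give the level of each Cyp4a gene, in CPM per kb of annotated exon, in each of the 16 libraries, with LKO libraries left of floxed libraries within a sex. Cyp4a14 and Cyp4a10 fill nearly the whole bar everywhere, the bars of females reach 1358 to 3090 CPM per kb and those of males 497 to 969, and Cyp4a12a is visible in males alone.

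Floxed livers were first compared between the sexes, since Cyp4a12a is known as a gene of males. Of the 6 genes, 3 were higher and 2 lower in females at an edgeR adjusted p under 0.05, where 22.9% of all 16126 genes tested passed (11.3% higher, 11.6% lower). The CPM of 5 of the 6 genes did not overlap between the groups, as for 24.1% of all genes tested. Beside these 6, the same call was made of 16 higher and 1 lower among 18 tested genes known as female-biased in mouse liver, and of 14 lower among 14 known as male-biased.

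Cyp4a14, an inducible PPARalpha target, was the most abundant member in females. Its levels were 3299.95, 2399.3, 2137 and 3578 CPM in female floxed livers 1 to 4 and 621, 573, 885 and 1212 CPM in male floxed livers 1 to 4. Every female library lay above every male library. The log2 fold change, female over male, was 1.80 (95% interval 1.14 to 2.45, edgeR adjusted p = 0.000711).

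Cyp4a10, the other inducible member and a lauric acid hydroxylase, had 2308, 1614, 1409 and 1992 CPM in female floxed livers and 692, 650.1, 928 and 857 CPM in male floxed livers. Again the groups did not overlap, and the log2 fold change was 1.23 (95% interval 0.80 to 1.66, edgeR adjusted p = 0.000528).

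Cyp4a31, a close copy of Cyp4a10, had 36.0, 25.2, 20.5 and 64.0 CPM in female floxed livers and 6.82, 10.1, 9.24 and 9.85 CPM in male floxed livers. Female floxed 4 was high for its group, yet all 4 females stood above all 4 males. The log2 fold change was 2.02 (95% interval 1.45 to 2.59, edgeR adjusted p = 8.16e-05).

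Cyp4a32, the other close copy, had 43.3, 34.8, 44.9 and 30.7 CPM in female floxed livers and 47.1, 35.2, 48.6 and 60.1 CPM in male floxed livers. The groups overlapped, and the log2 fold change of -0.31 (95% interval -0.74 to 0.11, edgeR adjusted p = 0.281) missed the threshold. Expressed against the counts of Cyp4a10 in the same library, Cyp4a32 stood at 1.54% to 3.19% in female floxed and 5.24% to 7.02% in male floxed livers. Cyp4a31 stood at 1.45% to 3.21% of Cyp4a10 in female floxed and 0.985% to 1.55% in male floxed livers. The ranges of the sexes were separate for Cyp4a32 and overlapped for Cyp4a31; these ratios were not tested.

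Cyp4a12a, which makes the arachidonic acid product 20-HETE in male mice, was nearly absent from females. Its raw counts were 2, 2, 3 and 0 in female floxed livers 1 to 4 and 2810, 2310, 1713 and 4071 in male floxed livers 1 to 4. Relative to library size the group sums of 7 and 10904 counts differ 1542-fold (exact 95% interval 748 to 3837, which covers counting error only), and the edgeR log2 fold change was -10.50 (95% interval -12.05 to -8.95, adjusted p = 7.88e-08). A count of 0 allows up to 3 counts in a library.

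Its near copy Cyp4a12b had 0, 1, 2 and 0 counts in female floxed livers and 68, 616, 98 and 67 counts in male floxed livers. Male floxed 2 held most of the male counts. The sums of 3 and 849 counts differ 280.2-fold (exact 95% interval 95.6 to 1361), and the edgeR log2 fold change was -7.93 (95% interval -10.30 to -5.56, adjusted p = 0.00014). Without male floxed 2 it was -6.46 (edgeR adjusted p = 1.52e-05), and without female floxed 3, which has 2 of the 3 female counts, it was -8.88 (edgeR adjusted p = 0.000638).

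**Figure D2:**
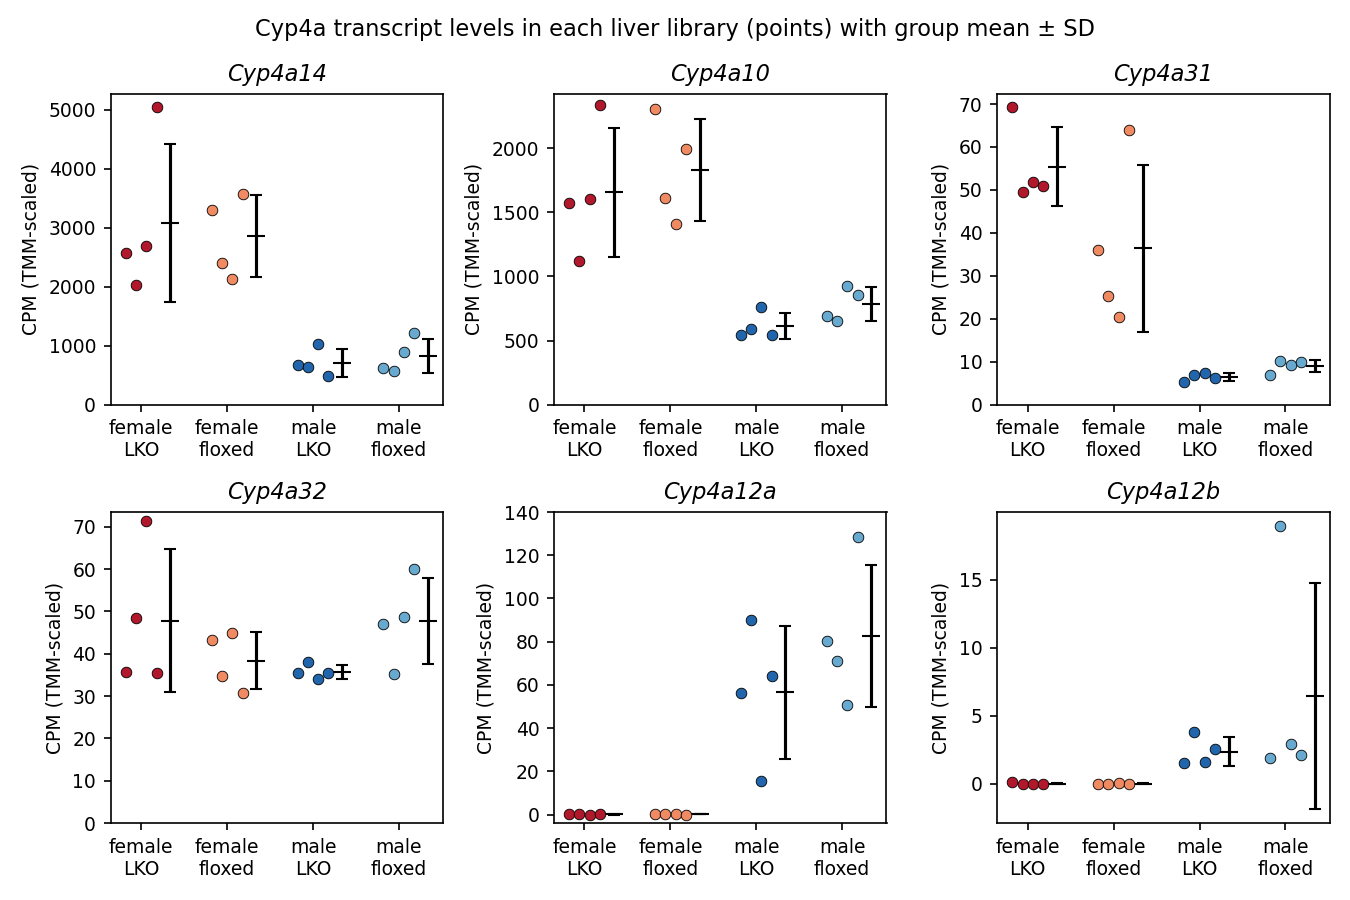
Each panel shows 1 Cyp4a gene, each point 1 library (CPM, TMM-scaled, linear axis) and each bar the group mean ± SD (n = 4), with LKO left of floxed. Cyp4a14, Cyp4a10 and Cyp4a31 are higher in all 8 females than in all 8 males, Cyp4a12a and Cyp4a12b are near 0 in females, Cyp4a32 overlaps between the sexes, and male floxed 2 stands alone at 18.9 CPM of Cyp4a12b.

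The same comparison in LKO livers, added after the data were seen, gave the same 5 calls with the same directions (42.0% of all genes tested passed, and 39.1% did not overlap between the groups). The log2 fold changes, female LKO over male LKO, were 2.13 for Cyp4a14 (edgeR adjusted p = 6.30e-05), 1.45 for Cyp4a10 (4.76e-05) and 3.11 for Cyp4a31 (6.41e-07). Cyp4a12a summed to 14 counts in female LKO and 7720 in male LKO livers, with a log2 fold change of -8.98 and an edgeR adjusted p of 1.05e-07, and without female LKO 6, which has 9 of the 14 counts, it was -10.01 (8.93e-07). Cyp4a12b summed to 4 counts in female LKO and 322 in male LKO livers, a log2 fold change of -6.10 (0.000532), and all 4 female counts were in LKO 5, without which it was -9.30 (0.00229). Cyp4a32, at 0.43, missed the threshold (edgeR adjusted p = 0.0963) and passed without female LKO 5 (0.55, 0.0459) or without female LKO 8 (0.54, 0.0439). Both of these libraries lay within the male LKO range, so neither pass adds support. Whether the sexes responded differently to the deletion was tested as a difference of the LKO effects, given further on.

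**Figure D3:**
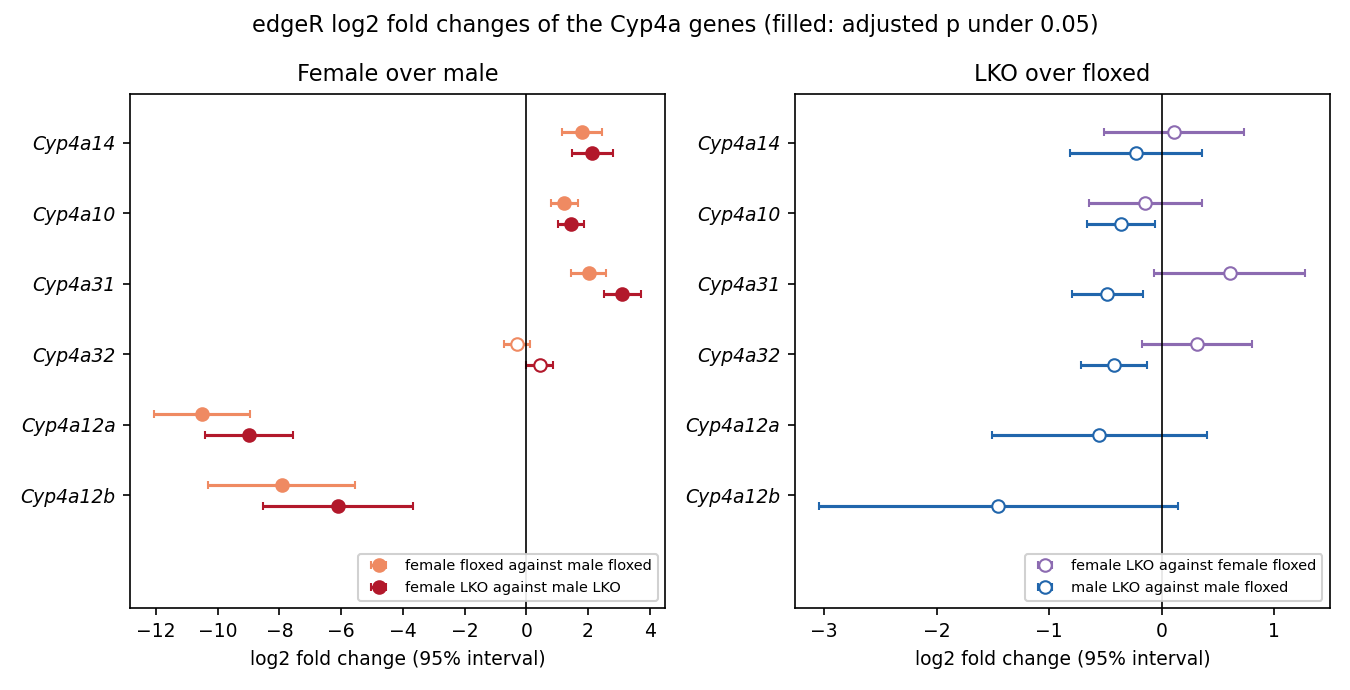
Points are edgeR log2 fold changes with 95% intervals for the 6 Cyp4a genes, female over male on the left and LKO over floxed on the right, filled where the adjusted p is under 0.05; the axes differ in scale. The sex differences of 5 genes pass in both genotypes and reach -10.50 for Cyp4a12a, while no LKO difference passes, and the interval of Cyp4a31 is -0.071 to 1.28 in females and -0.80 to -0.16 in males.

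Other cells and processes also differed between the sexes. In female floxed livers 5 of 6 Kupffer cell and macrophage markers and 5 of 6 neutrophil markers were higher. Summed Kupffer cell markers lay at 483 to 779 CPM in female floxed and 166 to 278 CPM in male floxed livers, and summed neutrophil markers at 12.7 to 75.9 CPM in female floxed and 5.53 to 10.5 CPM in male floxed livers. Summed hepatocyte markers such as Alb and Apoa1 lay at 60801 to 69225 CPM in female floxed and 66092 to 83591 CPM in male floxed livers, and were the most abundant of the 8 marker lists in every group. Of 24 acute-phase genes 14 were higher in female floxed livers and none was lower. The part of these shifts in the Cyp4a difference was not tested.

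PPARalpha target genes other than Cyp4a were compared beside the family. In female against male floxed livers 10 of 34 were higher and 1 was lower (32.4%, against 22.9% of all genes tested). Their median log2 fold change was 0.19, against -0.0016 over all genes. The smallest p-values belonged to the peroxisomal enzyme Ehhadh (1.17, edgeR adjusted p = 0.00186), the mitochondrial trifunctional protein gene Hadha (0.48, 0.00293), the pantetheinase gene Vnn1 (0.58, 0.0033) and the acyl-CoA thioesterase gene Acot3 (2.15, 0.00372). Of 19 genes of receptors and cofactors 3 were higher and none was lower, a share of 15.8% that is under the 22.9% of all genes tested. The 3 were Ppara (0.45, edgeR adjusted p = 0.0074), its partner Rxra (0.30, 0.0162), and Cux2, a repressor known from female liver (6.50, 3.29e-06). Cux2 is also counted among the female-biased genes.

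The steps around omega-hydroxylation did not follow the family in 1 direction. Of 14 genes of electron donors and later steps, 1 was higher and 5 were lower in female floxed livers. The higher one was the electron donor gene Por (0.68, edgeR adjusted p = 0.0499). Among the lower ones were the reductase gene Cyb5r3 (-0.88, edgeR adjusted p = 9.31e-05), the aldehyde dehydrogenase gene Aldh1a1 (-1.10, 0.000232), Cyb5b (-0.39, 0.00612) and the alcohol dehydrogenase gene Adh4 (-0.88, 0.00714). Of 21 genes of peroxisomal oxidation 5 were higher and 4 lower. The lists share genes: Ehhadh, Acot3 and Acot4, higher here, and Pex11a, lower here, are also counted among the PPARalpha targets. Of 8 other Cyp4 genes tested, Cyp4f16 was higher (0.85, 0.00334) and Cyp4v3 lower (-0.55, 0.000804). None of the 4 tested genes within 200 kb of the cluster passed in edgeR, 0 had an unadjusted p under 0.05 and DESeq2 called 0. They were Atpaf1 (-0.11, edgeR adjusted p = 0.404), Cyp4b1 (0.14, 0.548), Efcab14 (-0.091, 0.387) and the predicted gene Gm12847 (-0.68, 0.203).

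The study's own question was what the loss of matrin-3 did. In males no Cyp4a gene passed at an edgeR adjusted p under 0.05, where 1.04% of all 15355 genes tested did. All 6 had negative log2 fold changes, 3 of the 6 had an unadjusted p under 0.05, and DESeq2 called 0. These 3 were Cyp4a31, Cyp4a32 and Cyp4a10, which ranked 601, 683 and 1241 by p among all genes tested. Cyp4a12b, at an unadjusted edgeR p of 0.070, ranked 2352. So at least 1241 and fewer than 2352 of the 15355 genes had an unadjusted p under 0.05. Exact permutation tests gave p = 0.0857 for Cyp4a31, 0.114 for Cyp4a32 and 0.114 for Cyp4a10 (two-sided, smallest possible 0.0286). The groups overlapped for all 6, and 8.11% of all genes tested did not overlap. The 3 close copies had log2 fold changes, male LKO over male floxed, of -0.36 for Cyp4a10 (95% interval -0.66 to -0.057, edgeR adjusted p = 0.301), -0.48 for Cyp4a31 (-0.80 to -0.16, 0.177) and -0.43 for Cyp4a32 (-0.72 to -0.13, 0.191).

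Library by library, the groups met through single livers. Cyp4a10 had 546, 591, 762.3 and 547 CPM in male LKO livers 5 to 8, with the floxed values given above, and LKO 7 alone reached into the floxed range. Cyp4a31 had 5.28, 6.92, 7.38 and 6.29 CPM in male LKO livers, and floxed 1 was the library that lay among them. Cyp4a32 had 35.4, 38.1, 34.03 and 35.4 CPM in male LKO livers, and floxed 2, at 35.2 CPM, was the floxed library within that narrow range. Without floxed 2 Cyp4a32 passed (-0.55, edgeR adjusted p = 0.0283), and also without floxed 1 and 2 together, whose mouse numbers lie apart from the rest (-0.61, 0.0193). Leaving floxed 2 out removes the overlap of the groups, so neither pass adds support for a difference.

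The other 3 genes varied more among male livers. Cyp4a14 had 673, 634, 1035 and 481 CPM in male LKO livers, against 573 to 1212 CPM in male floxed livers, a log2 fold change of -0.23 (95% interval -0.82 to 0.36, edgeR adjusted p = 0.806). Cyp4a12a had 56.3, 90.04, 15.6 and 64.1 CPM in male LKO livers and 80.1, 71.0, 50.9 and 129 CPM in male floxed livers, and LKO 7 was the lowest of all. Its log2 fold change was -0.56 (95% interval -1.51 to 0.40, edgeR adjusted p = 0.665). Of the 14 genes known as male-biased in mouse liver, 2 were lower in male LKO livers and none was higher (edgeR), 8 had an unadjusted p under 0.05, and the median log2 fold change was -0.52 against -0.0058 over all genes. The 2 were Susd4 (-0.64, edgeR adjusted p = 0.0309) and the serpin gene Serpina1e (-1.54, 0.0398). Of 14 tested genes known as female-biased 1 was higher, the cytochrome P450 gene Cyp2a4 (2.25, edgeR adjusted p = 0.0176), and none was lower (edgeR). In that list 6 had an unadjusted p under 0.05, in both directions, and the median log2 fold change was 0.015. DESeq2 called 1 higher and 1 lower. Of all 15355 genes tested, at least 1241 and fewer than 2352 had an unadjusted p under 0.05.

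Cyp4a12b had 1.51, 3.84, 1.61 and 2.54 CPM in male LKO livers and 1.94, 18.9, 2.91 and 2.12 CPM in male floxed livers. Floxed 2 apart, the floxed values lay within the range of the LKO values. The log2 fold change of -1.45 (95% interval -3.04 to 0.14, edgeR adjusted p = 0.457) became 0.024 without floxed 2 (edgeR adjusted p = 0.988). In floxed 2 the counts of Cyp4a12b were 26.7% of those of Cyp4a12a, against 1.65% to 5.72% in the other 3 floxed males and 2.68% to 10.3% in LKO males. Beside these values, Cfd, the gene of the adipocyte product adipsin, had a log2 fold change of 1.40 in male LKO livers, which missed the threshold (edgeR adjusted p = 0.0985). With 337 to 2295 counts in male libraries it made up nearly the whole sum of the adipocyte markers, which lay at 31.5 to 66.6 CPM in male LKO and 9.64 to 26.1 CPM in male floxed livers. The defining markers Adipoq and Plin1 had 0 to 3 counts and Retn 0 to 5 in every male library. The part of Cfd was not tested.

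**Figure D4:**
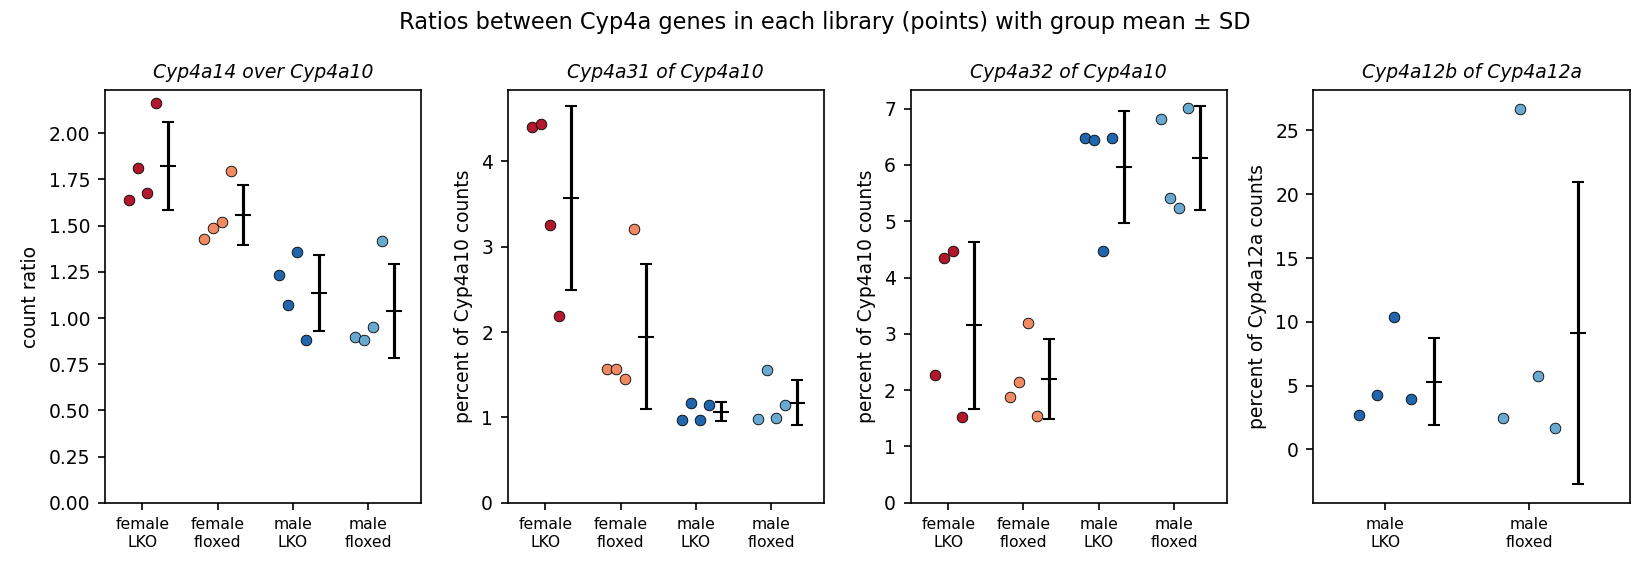
Points are libraries and bars group means ± SD (n = 4) of the count ratio of Cyp4a14 to Cyp4a10, of Cyp4a31 and Cyp4a32 as a percentage of Cyp4a10 counts, and, in males, of Cyp4a12b as a percentage of Cyp4a12a counts. Female floxed 4 (3.21%) lies apart from the other floxed females in the Cyp4a31 panel, and male floxed 2 (26.7%) from every other male in the Cyp4a12b panel.

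In females no Cyp4a gene passed either (edgeR; 9.29% of all 15432 genes tested passed). None of the 4 members tested had an unadjusted p under 0.05, DESeq2 called 0, and the groups overlapped for all 4 (15.9% of all genes tested did not). Cyp4a14 had 2577, 2022, 2682 and 5046 CPM in female LKO livers 5 to 8, with LKO 8 above every other library, and a log2 fold change of 0.11 (95% interval -0.52 to 0.73, edgeR adjusted p = 0.835). Cyp4a10 had 1575, 1116, 1599 and 2334 CPM and a log2 fold change of -0.15 (-0.65 to 0.36, 0.71). Cyp4a32 had 35.7, 48.5, 71.5 and 35.5 CPM, with LKO 7 the highest, and a log2 fold change of 0.31 (-0.18 to 0.81, 0.388).

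Cyp4a31 had 69.3, 49.6, 51.9 and 51.0 CPM in female LKO livers 5 to 8 and 36.0, 25.2, 20.5 and 64.0 CPM in female floxed livers 1 to 4. The LKO libraries all lay above floxed 1 to 3, and floxed 4 lay among them. The log2 fold change of 0.60 (95% interval -0.071 to 1.28, edgeR adjusted p = 0.226) passed without floxed 4 (1.02, 0.014). Leaving floxed 4 out removes the overlap of the groups, so this pass adds no support for a difference. Over all 8 libraries an exact permutation test gave p = 0.114 (two-sided; the smallest that 70 regroupings allow is 0.0286).

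Cyp4a12a and Cyp4a12b did not pass the filter on low counts in females. Cyp4a12a had 3, 9, 0 and 2 counts in female LKO livers and 2, 2, 3 and 0 in female floxed livers, a ratio of the sums of 2.02 relative to library size (exact 95% interval 0.763 to 5.91). LKO 6 held 9 of the 14 LKO counts, and without it the ratio was 0.95. Cyp4a12b had 4, 0, 0 and 0 counts in female LKO livers and 0, 1, 2 and 0 in female floxed livers, which is at the floor of what these libraries can measure.

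The difference of the LKO effects, female minus male, was tested directly over all 16 libraries. It passed for none of the 6 genes (edgeR; 4.42% of all 16126 genes tested passed), with an unadjusted p under 0.05 for 2 genes and 1 call by DESeq2. The 2 genes, Cyp4a31 and Cyp4a32, ranked 1534 and 2010 by p. So at least 2010 of the 16126 genes had an unadjusted p under 0.05. Among the 4 genes tested in females the difference was greatest for Cyp4a31, at 1.09 (95% interval 0.30 to 1.88, edgeR adjusted p = 0.106). It passed with DESeq2 (1.09, adjusted p = 0.0402). It also passed without female floxed 4 (1.501, edgeR adjusted p = 0.00451). That library was the floxed one among the LKO values, so the pass without it adds no support. Cyp4a32 had a difference of 0.74 (0.14 to 1.34, edgeR adjusted p = 0.148), Cyp4a14 one of 0.34 (0.706) and Cyp4a10 one of 0.22 (0.723). Over both sexes together no member passed (edgeR; 8.55% of all genes tested passed; 0 by unadjusted p under 0.05 and 0 by DESeq2), and Cyp4a10 came closest (-0.25, 95% interval -0.55 to 0.048, adjusted p = 0.29).

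Much else changed in female LKO livers while Cyp4a10 and Cyp4a14 did not pass. Of 24 acute-phase genes 20 were higher, with the smallest p for Saa2 (4.72, edgeR adjusted p = 0.0051) and Saa1 (3.89, 0.00523), and 5 of 6 sinusoidal endothelial markers were lower. Of 20 genes known as female-biased 9 were lower and 2 higher, with a median log2 fold change of -1.12, and the smallest p-values belonged to the sulfotransferase genes Sult2a1 (-5.02, edgeR adjusted p = 0.000899) and Sult3a1 (1.44, 0.00367) and to Hao2, a peroxisomal hydroxyacid oxidase gene (-4.52, 0.00367). Of 12 tested genes known as male-biased 3 were higher and none was lower: the organic anion transporter gene Slco1a1 (2.37, edgeR adjusted p = 0.0165), the major urinary protein gene Mup20 (1.86, 0.019) and the complement gene C6 (1.00, 0.0271). Of 19 genes of receptors and cofactors of Cyp4a transcription 15.8% passed, against 9.29% of all genes tested. Of these 1 was lower, the nuclear receptor gene Nr1i3 (-1.01, edgeR adjusted p = 0.00796), and 2 were higher, Hnf4a (0.52, 0.023) and the coactivator gene Ppargc1a (0.94, 0.0463).

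Markers of liver cell types also differed between the female genotypes. Hepatocyte markers moved in both directions, with Tat higher (1.30, edgeR adjusted p = 0.0336), Alb (-0.88, 0.0303) and Ttr (-0.75, 0.0338) lower, and a median log2 fold change of 0.26 over the 8. Their sum, of which Alb was the most abundant part at 543990 to 1698017 counts in females, lay at 35950 to 53723 CPM in female LKO and 60801 to 69225 CPM in female floxed livers. Of 6 stellate cell markers 2 were lower, and their sum lay at 378 to 451 CPM in female LKO and 457 to 543 CPM in female floxed livers. Summed sinusoidal endothelial markers lay at 113 to 149 CPM in female LKO and 169 to 181 CPM in female floxed livers. Summed neutrophil markers lay at 27.6 to 114 CPM in female LKO and 12.7 to 75.9 CPM in female floxed livers and overlapped. The part of these shifts in the Cyp4a values was not tested.

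Of the 34 other PPARalpha targets, 2 were higher and 3 lower in female LKO livers (14.7%, against 9.29% of all genes tested). Their median log2 fold change was -0.077, against 0.0013 over all genes. The lower ones were the acyl-CoA thioesterase genes Acot3 (-2.40, edgeR adjusted p = 0.0097) and Acot4 (-1.17, 0.0161) and the fatty aldehyde dehydrogenase gene Aldh3a2 (-0.64, 0.0297), and Angptl4, an inhibitor of lipoprotein lipase, was higher (0.55, 0.0277). Of 14 genes of electron donors and later steps none was higher and 5 were lower, among them Cyb5b (-0.78, edgeR adjusted p = 0.00535), Aldh2 (-0.53, 0.0284) and Adh1 (-0.71, 0.0351). Aldh3a2, named above, is counted in this list too. In the Cyp4 group, Cyp4b1, which neighbours the cluster, fell (-0.51, edgeR adjusted p = 0.0464) and so did Cyp4v3 (-0.38, 0.0481). In male LKO livers none of the 34 PPARalpha targets passed in edgeR, 8 had an unadjusted p under 0.05 and DESeq2 called 4, all higher. Of all 15355 genes tested in males, at least 1241 and fewer than 2352 had an unadjusted p under 0.05. In the later steps Cyb5r3 alone rose in male LKO livers (0.32, edgeR adjusted p = 0.043).

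Within a sex, livers with more Cyp4a10 also tended to have more Cyp4a14. Pearson's r of their log2 CPM was 0.90 over the 8 female and 0.80 over the 8 male libraries, and 0.95 and 0.87 once group means were removed. By ranks the association was weaker in males, with a Spearman rho of 0.62, against 0.90 in females. The ratio of Cyp4a14 to Cyp4a10 counts was 1.82 ± 0.239 in female LKO and 1.56 ± 0.163 in female floxed livers, against 1.13 ± 0.206 in male LKO and 1.04 ± 0.254 in male floxed livers (SD, n = 4 each). For the close copies, r with Cyp4a10 was 0.16 for Cyp4a31 and -0.38 for Cyp4a32 in females, and 0.73 and 0.70 in males. Once group means were removed it was 0.41 for Cyp4a31 and -0.32 for Cyp4a32 in females, and 0.48 and 0.45 in males. Cyp4a12a and Cyp4a12b had an r of 0.25 over the 8 males and 0.11 once group means were removed. The points of a sex share a table and its scaling, and both genotypes are among them.

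Among 10641 genes ranked by the smaller of their correlations in the 2 sexes (8 libraries each), Cyp4a10 was most like Retsat (r = 0.77 in females and 0.83 in males), Fubp1 (0.82 and 0.76) and Morc2a (0.87 and 0.75). Cyp4a14 was most like the pseudogene Tpt1-ps3 (0.81 and 0.86), Psmc6 (0.79 and 0.80) and Acot1 (0.89 and 0.78), which encodes an acyl-CoA thioesterase and is a PPARalpha target. Cyp4a31 was most like Alg8 (0.85 and 0.96), Ahsa2 (0.89 and 0.82) and Hhip (0.84 and 0.82), and Cyp4a32 most like Sugp2 (0.84 and 0.87), mt-Rnr1 (0.84 and 0.77) and Ttc4 (0.88 and 0.75). The ranking carries no test. Without the 2 libraries farthest from the median, 6 of these 12 genes had an r under 0.5 in a sex. In females r was then 0.10 for Tpt1-ps3, 0.38 for Psmc6, 0.40 for mt-Rnr1 and 0.41 for Hhip, and in males it was 0.23 for Ttc4, 0.27 for mt-Rnr1 and 0.47 for Acot1.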

How the data were processed

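Liver RNA was extracted with TRIzol and made into directional poly(A) libraries according to the labels' protocols. Raw counts per gene were deposited by the authors in 1 table for each sex (24623 identifiers in males, 24840 in females). Per the submitters' processing notes mm10 was used; aligner, counter, strand setting and read length are not given in the sources used here. Symbols, coordinates and coding sequences came from the GENCODE annotation of GRCm38, and all 6 members matched.

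Each sex was fitted alone, and all 16 libraries were fitted over the shared identifiers. Genes passing filterByExpr (minimum count 10, minimum total 15) were TMM-scaled and tested with edgeR 4.0.16 (quasi-likelihood, two-sided) in R 4.3.3, with p-values Benjamini-Hochberg adjusted over all genes tested and called under 0.05. Single members were also tested with exact permutations. The procedure was tested on simulated data with the same dispersion for every gene and changes planted in well-counted genes only. That setting does not cover the spread of these livers or Cyp4a12a and Cyp4a12b in females.

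The members, gene lists and alternatives were chosen with earlier results of these data known. All members are named. Of each list, up to 4 genes with the smallest p are named, and also Por in the comparison of floxed livers. Each library is a separate mouse. Within groups no pair of libraries agreed within sampling noise (lowest chi-square per degree of freedom 12.7). Replicate numbers 1 to 8 recur in both sexes without a stated pairing. Alternatives were DESeq2 1.42.0, median-of-ratios scaling, library totals, no filter, robust dispersion, summed copies, a replicate block, the 16-library fit, omitted libraries and, added later, LKO in place of floxed libraries.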

Additional observations from a re-analysis of the deposited data

Results flagged for a closer look

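In 34 sets of 4 values, each a level or a ratio of the Cyp4a genes in 1 group, the library at one end was set against its nearest neighbour. In 6 of them it stood farther off than 95% of such sets allow, a limit that holds for normally distributed values. Chance flags about 1 in 20 independent sets. These sets are not independent, since the ratios reuse the counts behind the levels, so 6 of 34 cannot be set against that rate. No cause was tested for any of the 6. Male floxed 2 had 18.9 CPM of Cyp4a12b, with 1.94 to 2.91 CPM in the other floxed males, and accordingly a Cyp4a12b count of 26.7% of Cyp4a12a. Female LKO 5 had 69.3 CPM of Cyp4a31, with 49.6 to 51.9 CPM in the other LKO females. Female floxed 4 had a Cyp4a31 count of 3.21% of Cyp4a10, with 1.45% to 1.56% in the other floxed females. Male LKO 7 had a Cyp4a32 count of 4.46% of Cyp4a10, with 6.44% to 6.48% in the other LKO males. Its Cyp4a10 was 762 CPM, with 546 to 591 CPM in the others, and its Cyp4a32 34.03 CPM, with 35.4 to 38.1 CPM. Male floxed 4 had 1.41 counts of Cyp4a14 per count of Cyp4a10, with 0.881 to 0.954 in the other floxed males.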

How the results depend on the processing

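The 5 sex differences of floxed livers kept their call and direction with DESeq2, both other scalings, no filter, robust dispersion, the replicate block, each library left out in turn and both joint omissions; with close copies summed, the 3 remaining units were all called (3 in LKO livers too, where leaving out a library gave 5 to 6 calls). For LKO against floxed the count of members called was 0 and became 1 in males without floxed 1 and 2 together and 1 in females without floxed 4 and LKO 7 together. The interaction of sex and genotype (the difference of the LKO effects) had 1 call with DESeq2 and 1 without those 2 females; leaving out single libraries gave 0 to 1 in each. These are Cyp4a32 in males and Cyp4a31 elsewhere. Female floxed 4 and LKO 7 were paired for omission because of how they lay relative to the other genotype in earlier results of these data, so a call without them supports nothing. The calls without male floxed 2 (Cyp4a32) or female floxed 4 (Cyp4a31) add no support either, since each library lay among the LKO values. Directions that did not hold belong to values that missed the threshold. Without female floxed 4 and LKO 7 together, Cyp4a32 in females turned to -0.040, and Cyp4a14 over both sexes to 0.039. Without male floxed 1 and 2 together, Cyp4a12b over both sexes turned to 0.14. With LKO in place of floxed libraries, the sex difference of Cyp4a32 turned to 0.43. Leaving out single libraries, log2 fold changes ranged in males from -1.77 to 0.024 for Cyp4a12b and -0.47 to 0.022 for Cyp4a14, and in females from -0.36 to 0.0032 for Cyp4a10 and -0.24 to 0.27 for Cyp4a14. For the interaction they ranged from -1.37 to 2.77 for Cyp4a12b and -0.0049 to 0.58 for Cyp4a14, and over both sexes from -0.31 to 0.41 for Cyp4a12a, -2.14 to 0.20 for Cyp4a12b, -0.23 to 0.066 for Cyp4a14, -0.037 to 0.27 for Cyp4a31 and -0.19 to 0.0099 for Cyp4a32.

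Counts of all genes called moved more. DESeq2 called 524 genes in males (160 with edgeR), 2427 in females (1433) and 1353 for the interaction (713). The 16-library fit called 97 and 2854. Leaving out single libraries gave 69 to 179 in males, 396 to 2300 in females and 407 to 1435 for the difference, and omitting female floxed 4 and LKO 7 gave 3028 in females, 2030 for the difference and 2902 over both sexes (1379). Omitting male floxed 1 and 2 gave 243 for the difference.

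Libraries with the same number in both sexes did not deviate together (r from -0.12 to 0.13 over 8 pairs, and 2 matched their own number best). This check cannot exclude a pairing, and none is stated. With the replicate block the interaction had 468 calls (713 without) and the sex difference of floxed livers 2937 (3698), with 0 and 5 members called. The cause of these changes was not tested. Depth limits Cyp4a12a and Cyp4a12b in females, at 0 to 9 counts a library.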
